A study of Mus musculus with 5 samples.

Results

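The 10 genes described here encode the chains of collagen type IX (Col9a1, Col9a2 and Col9a3), the other fibril-associated collagens Col12a1, Col14a1, Col16a1 and Col22a1, and the classical chains of collagen type VI (Col6a1, Col6a2 and Col6a3). They were picked by name, not by a cut on their measured values, from 56941 gene identifiers in the deposited table. Earlier results of these data were known at that time. All 10 had enough counts to be tested among 19713 genes. RNA was sequenced from the dissected iridocorneal ring of the mouse eye, the tissue that holds the aqueous drainage structures and also some remnants of iris and ciliary body. The comparison addresses how the RNA of this tissue differs between mice of a pigmentary glaucoma strain and a matched control strain. There were 3 pools of DBA/2J tissue and 2 pools of Gpnmb+ tissue.

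DBA/2J mice carry a loss-of-function mutant allele of Gpnmb, a glycoprotein of pigment-bearing and phagocytic cells, together with the Tyrp1 b allele. The Gpnmb+ controls, DBA/2J-Gpnmb+/SjJ, carry the same Tyrp1 b allele but wild-type Gpnmb, so Gpnmb is the named genetic difference. By the labels the mice were 12 months old, the lower end of the age range in the study's methods, untreated, and male and female. A pool was described as tissue of 3 mice, although the library names of the Gpnmb+ pools hold only 2 animal numbers each. Pools average over animals, so p-values here measure the spread between pools.

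The deposited counts summed to between 43900661 and 49837758 per pool, and the 10 genes took 0.117% to 0.146% of them. Counts of Gpnmb, the gene mutated in DBA/2J, ranged from 1946 to 2234 in DBA/2J but were 110568 and 129659 in Gpnmb+, as the labels say. RNA of the Y-linked gene Ddx3y was at 1567 to 4168 counts in DBA/2J pools but at 0 and 4 counts in Gpnmb+ pools, although the labels give male and female mice. Xist, which marks female cells, was at 7843 and 9152 counts in Gpnmb+ but at 0 to 2417 in DBA/2J. The DBA/2J pool with 0 counts of Xist was pool 2, which held 4168 counts of Ddx3y, so no female RNA was seen in it. The RNA thus goes against the stated sexes for the Gpnmb+ pools, and genotype and sex of the pooled mice cannot be told apart in any comparison below. None of the 10 genes lies on a sex chromosome. In bulk tissue, fewer cells of a type and less RNA per cell cannot be told apart either.

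Fibril-associated collagens do not form fibrils themselves. Their triple helices are interrupted by flexible stretches, and they attach to the surface of fibrils built by other collagens, where they link fibrils to the surrounding matrix. Type IX is assembled from 3 different chains and coats the type II collagen fibrils of cartilage and of the vitreous, which the nonpigmented ciliary epithelium helps to make. Types XII and XIV decorate type I collagen fibrils in tendon, cornea and sclera, type XVI lies near basement membranes and in fibrillar networks, and type XXII marks tissue junctions such as that of muscle and tendon. Type VI, also assembled from 3 different chains, forms beaded microfilaments that surround cells in most connective tissues. In the drainage tissue of the eye, such matrix lies in the trabecular meshwork and the sclera.

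Col9a1 and Col9a2 are the pair of genes on which the comparison turned, and the bases upstream of their transcription starts are printed here to show their promoters. RefSeq's table for GRCm38.p6 held 6 of the 10 genes, and gave Col9a1 with 2 starts. Each sequence runs 5′ to 3′ over the 250 bases before a start on the + strand, at chr1:24177360-24177609 and chr1:24194953-24195202 for Col9a1 and at chr4:121039316-121039565 for Col9a2. Capitals mark matches to the motifs that were searched on both strands, namely a SOX-type core ACAAT, a GC box GGGCGG and a TATA box TATAAA.
Col9a1 upstream start: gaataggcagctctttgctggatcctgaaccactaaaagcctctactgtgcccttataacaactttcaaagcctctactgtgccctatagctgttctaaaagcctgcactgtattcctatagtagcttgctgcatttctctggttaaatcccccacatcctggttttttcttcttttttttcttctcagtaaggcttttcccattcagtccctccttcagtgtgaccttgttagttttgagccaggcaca
Col9a1 downstream start: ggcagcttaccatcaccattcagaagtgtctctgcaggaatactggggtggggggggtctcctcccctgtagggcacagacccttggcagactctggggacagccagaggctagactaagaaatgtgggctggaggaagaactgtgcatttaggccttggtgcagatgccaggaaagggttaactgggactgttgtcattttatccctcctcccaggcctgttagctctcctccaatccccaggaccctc
Col9a2 start: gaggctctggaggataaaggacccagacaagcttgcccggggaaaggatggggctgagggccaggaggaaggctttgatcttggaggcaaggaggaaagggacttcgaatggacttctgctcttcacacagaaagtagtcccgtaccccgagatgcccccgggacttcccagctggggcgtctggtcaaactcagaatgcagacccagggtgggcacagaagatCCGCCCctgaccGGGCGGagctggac
The Col9a2 sequence held 2 matches to the GC box, on opposite strands and beginning 26 and 14 bases before the start. Neither Col9a1 sequence held any of the 3 motifs. Among 32851 mouse promoter windows of the same length, 32.7% held the GC box, 27.7% the SOX-type core and 12.4% the TATA box. Gene counts do not separate transcripts that begin at the 2 Col9a1 starts. Col9a3, Col12a1, Col14a1 and Col22a1 were not in the table used.

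Col9a1 and Col9a2 were the only members of the 10 called different between the genotypes, and both were higher in DBA/2J. A call needed a fold of at least 1.5 and a Benjamini-Hochberg adjusted p of at most 0.05 in edgeR's quasi-likelihood test. Of all genes tested, 0.796% were called, 0.502% higher and 0.294% lower in DBA/2J. Values below are in CPM, the counts of a gene scaled to a common library size, after TMM scaling of the library sizes, and log2 fold changes are DBA/2J over Gpnmb+.

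Col9a1 (ENSMUSG00000026147, GRCm39 chr1:24216691-24291765, + strand) measured 52.0, 62.0 and 66.9 CPM in the DBA/2J pools, against 18.2 and 10.8 CPM in Gpnmb+. Every DBA/2J pool lay well above both Gpnmb+ pools. The means were 60.3 ± 7.58 (SD, n = 3) and 14.5 ± 5.24 CPM (SD, n = 2), with a log2 fold change of 2.06 (SE 0.25, 95% interval 1.45 to 2.66) and an edgeR adjusted p of 0.0368. Col9a2 (ENSMUSG00000028626, GRCm39 chr4:120896582-120912523, + strand), which encodes the chain that pairs with the products of Col9a1 and Col9a3, measured 77.1, 92.0 and 89.9 CPM in DBA/2J and 21.0 and 12.1 CPM in Gpnmb+. Its pools were again separate, and Gpnmb+ pool 2 was the lowest for both genes. The means were 86.3 ± 8.03 (SD, n = 3) and 16.5 ± 6.31 CPM (SD, n = 2), with a log2 fold change of 2.38 (SE 0.25, 95% interval 1.77 to 3.00) and an edgeR adjusted p of 0.0283. With 1 pool left out, the log2 fold change of Col9a1 ranged from 1.73 to 2.48 and that of Col9a2 from 2.04 to 2.84, both lowest without Gpnmb+ pool 2. Neither gene was called without DBA/2J pool 1, 2 or 3 or without Gpnmb+ pool 2, when their adjusted p-values reached 0.119 and 0.107, and both were called without Gpnmb+ pool 1. DESeq2's adjusted p-values over all 5 pools were 1.6e-13 and 1.8e-18.

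Col9a3 (ENSMUSG00000027570, GRCm39 chr2:180239583-180264063, + strand), the remaining chain of the type IX trimer, was not called. It measured 29.0, 34.7 and 38.9 CPM in DBA/2J and 21.6 and 24.7 CPM in Gpnmb+. The pools did not overlap, but the lowest DBA/2J pool and the highest Gpnmb+ pool were close. The means were 34.2 ± 4.95 (SD, n = 3) and 23.2 ± 2.16 CPM (SD, n = 2), and the log2 fold change was 0.56 (SE 0.15, 95% interval 0.20 to 0.92, edgeR adjusted p = 0.157). DESeq2 gave it an adjusted p of 0.0214, but its fold of 1.48 stays under 1.5. The gene shares 535 exonic bases with Tcfl5 on the opposite strand, a gene with 14 to 29 counts per pool against 1098 to 1735 for Col9a3.

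**Figure D1:**
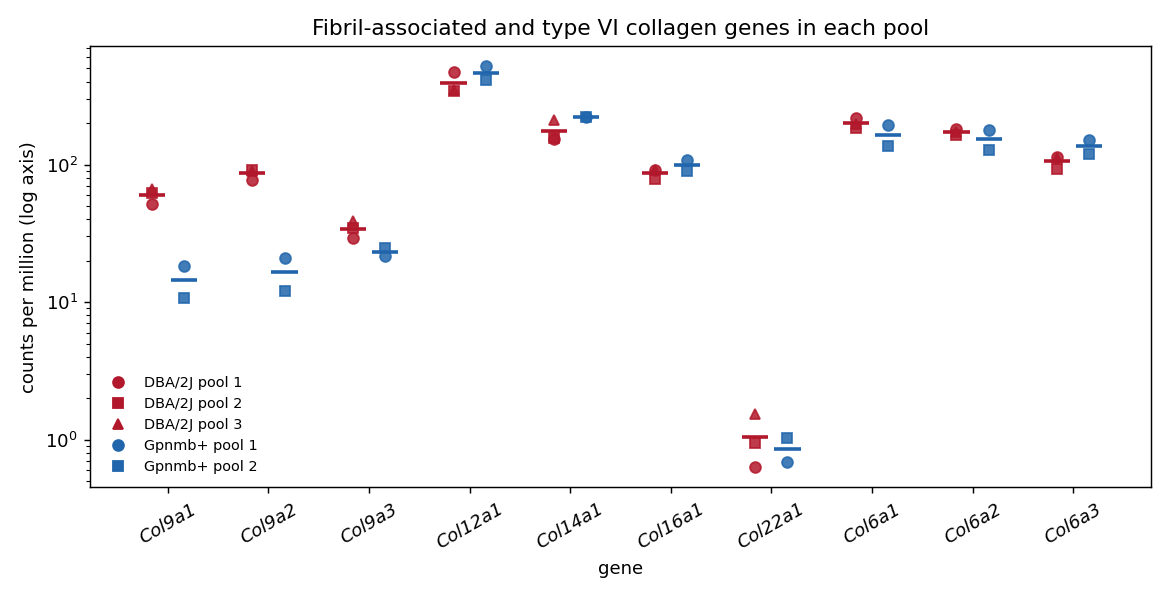
CPM (log axis) of the 10 genes in each of the 3 DBA/2J and 2 Gpnmb+ pools, with a line at each group's mean. Col9a1 and Col9a2 show the wide gap between genotypes, with DBA/2J pools at 52.0 CPM or more and Gpnmb+ pools at 21.0 CPM or less, while the other 8 genes lie close together or overlap.

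The chains of type IX were then set against each other, since they are assembled into 1 molecule. Levels per kilobase of exon sequence were used for this, because CPM depends on the length of a gene. Col9a3 stood at 27.0% of the Col9a2 level per kilobase in DBA/2J and at 99.5% in Gpnmb+ (37.8% and 139% by coding length). The log2 ratio of Col9a3 to Col9a2 was -1.96, -1.95 and -1.75 in the DBA/2J pools against -0.50 and 0.49 in Gpnmb+, a difference of -1.88 (SE 0.38). The log2 ratio of Col9a3 to Col9a1 was -0.68, -0.67 and -0.62 in DBA/2J against 0.41 and 1.36 in Gpnmb+, a difference of -1.54 (SE 0.35). The 2 Gpnmb+ pools lay far apart in both ratios, whereas the DBA/2J pools lay close together. The SE of each difference of log2 ratios, here and for type VI, assumes the same spread in both genotypes. For Col9a3 to Col9a2 the SDs were 0.12 in DBA/2J and 0.70 in Gpnmb+, and for Col9a3 to Col9a1 0.03 and 0.67. Col9a2 and Col9a1 kept a closer ratio, 1.28, 1.28 and 1.13 on the log2 scale in DBA/2J against 0.91 and 0.87 in Gpnmb+, a difference of 0.34 (SE 0.06).

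The same ratios were formed for type VI. Col6a1 (ENSMUSG00000001119, GRCm39 chr10:76543440-76562283, - strand) measured 217, 185 and 199 CPM in DBA/2J and 192 and 137 CPM in Gpnmb+. The pools overlapped, with Gpnmb+ pool 2 the lowest. The log2 fold change was 0.28 (SE 0.16, 95% interval -0.11 to 0.68, edgeR adjusted p = 0.452). Col6a2 (ENSMUSG00000020241, GRCm39 chr10:76429660-76459549, - strand), which lies on the same strand with its start 83890 bases beyond the end of Col6a1, measured 180, 165 and 171 CPM in DBA/2J and 179 and 127 CPM in Gpnmb+. The same pool was the lowest, and the log2 fold change was 0.17 (SE 0.15, 95% interval -0.20 to 0.55, edgeR adjusted p = 0.636). Its value without Gpnmb+ pool 2 was -0.052.

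Col6a3 (ENSMUSG00000048126, GRCm39 chr1:90693645-90771780, - strand), which encodes the longest of the type VI chains described here, measured 114, 93.4 and 111 CPM in DBA/2J and 151 and 120 CPM in Gpnmb+. Every DBA/2J pool lay below both Gpnmb+ pools. The log2 fold change was -0.35 (SE 0.14, 95% interval -0.69 to -0.02, edgeR adjusted p = 0.292), so it was not called. The log2 ratio of Col6a3 to Col6a1, per kilobase, was -1.98, -2.03 and -1.88 in DBA/2J against -1.39 and -1.23 in Gpnmb+, a difference of -0.65 (SE 0.08). With 1 pool left out, that difference lay between -0.73 and -0.57. Col6a3 thus stood at 25.7% of the Col6a1 level in DBA/2J and at 40.3% in Gpnmb+. These shares depend on the length used, and by coding length they were 16.5% and 25.9%, while the difference of the log2 ratios does not depend on it. The log2 ratio of Col6a3 to Col6a2 was -0.80, -0.95 and -0.75 in DBA/2J against -0.37 and -0.21 in Gpnmb+, a difference of -0.54 (SE 0.10), while Col6a2 to Col6a1 differed by -0.11.

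**Figure D2:**
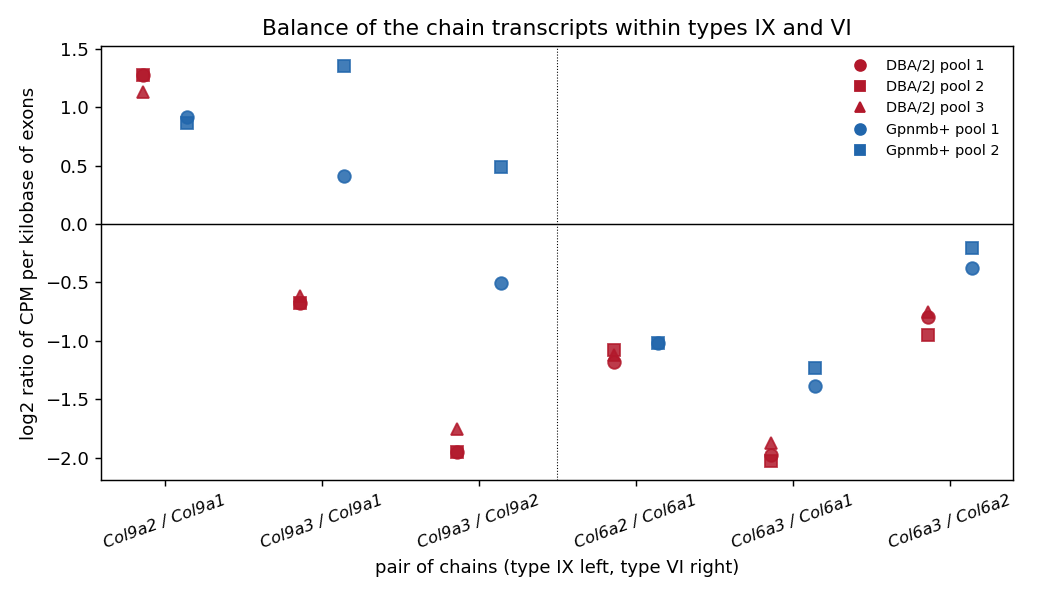
Log2 ratio of the levels per kilobase of exons for the 3 pairs of type IX chains (left) and the 3 pairs of type VI chains (right), 1 point per pool. The Col9a3 to Col9a2 ratio lies at -1.96 to -1.75 in the DBA/2J pools and at -0.50 and 0.49 in those of Gpnmb+, and the Col6a3 to Col6a1 ratio at -2.03 to -1.88 against -1.39 and -1.23.

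In none of these 6 pairs did the pools of the genotypes overlap. Among all 903 pairs of the 43 collagen chain genes tested, 57.7% did not overlap, so the count of 6 pairs is read against that share. The exact two-sided permutation test of the ratios gave p = 0.2 for each, also after adjustment over the 6 pairs. In the form of the test used, 0.2 is the smallest p that 3 against 2 pools allow.

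The 4 other fibril-associated genes were not called. Col12a1 (ENSMUSG00000032332, GRCm39 chr9:79506268-79626135, - strand), the fibril-associated chain with the most counts here, measured 468, 345 and 351 CPM in DBA/2J and 520 and 412 CPM in Gpnmb+. The pools overlapped, and the log2 fold change was -0.26 (SE 0.18, 95% interval -0.70 to 0.17). Col14a1 (ENSMUSG00000022371, GRCm39 chr15:55171140-55384199, + strand), the other large fibril-associated chain of dense connective tissue, measured 154, 156 and 212 CPM in DBA/2J and 220 and 222 CPM in Gpnmb+. The 2 Gpnmb+ pools nearly coincided and lay just above DBA/2J pool 3, with a log2 fold change of -0.35 (SE 0.16, 95% interval -0.73 to 0.04).

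Col16a1 (ENSMUSG00000040690, GRCm39 chr4:129941154-129993076, + strand) measured 91.1, 78.4 and 90.9 CPM in DBA/2J and 108 and 90.1 CPM in Gpnmb+. These pools overlapped, with a log2 fold change of -0.19 (SE 0.12, 95% interval -0.48 to 0.10). Col22a1 (ENSMUSG00000079022, GRCm39 chr15:71667644-71906095, - strand), the chain of muscle and tendon junctions, had few counts, 28, 41 and 69 in the DBA/2J pools against 35 and 50 for Gpnmb+. The groups overlapped, and the log2 fold change was 0.29 with an interval of -0.80 to 1.37, too wide at this depth to show a difference of 1.5-fold in either direction. The edgeR adjusted p-values of these 4 genes were 0.523, 0.355, 0.489 and 0.803 in the order given.

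Beside Col22a1, the skeletal muscle list moved between pools. Its 8 genes summed to 211, 292 and 494 CPM in DBA/2J and 201 and 132 CPM in Gpnmb+. All 8 had log2 fold changes above 0, with a median of 0.96. None was called by edgeR, 3 had an unadjusted p under 0.05 and 2 passed DESeq2's adjusted p, shares that were 15.9% and 6.96% over all genes tested. Acta1, the actin of skeletal muscle, had a log2 fold change of 1.17 (edgeR adjusted p = 0.219). DBA/2J pool 3 was the highest pool for both Col22a1 and this sum, but the other pools did not keep the same order. Gpnmb+ pool 2, the lowest for the sum, held 1.02 CPM of Col22a1. That was above Gpnmb+ pool 1 at 0.690 CPM and DBA/2J pools 1 and 2 at 0.630 and 0.955 CPM. The part of muscle in the Col22a1 value was not tested.

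**Figure D3:**
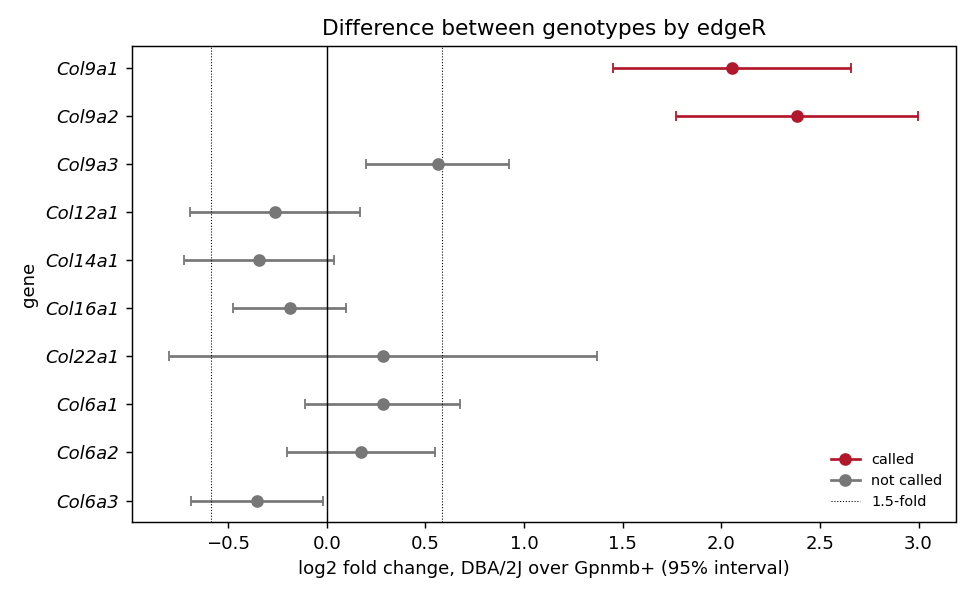
Log2 fold change of each gene, DBA/2J over Gpnmb+, with the 95% interval of edgeR's fit, with dotted lines at a fold of 1.5. The intervals of Col9a1 and Col9a2 lie beyond 1.45, that of Col9a3 runs from 0.20 to 0.92, and those of 6 of the other 7 genes include 0, the exception being Col6a3 with an interval of -0.69 to -0.02.

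Of the 10 genes, 6 had a log2 fold change above 0 and 4 below, with a median of 0.23, against 47.4% above 0 and a median of -0.02 over all genes tested. The pools did not overlap for 5 of the 10, 3 higher and 2 lower in DBA/2J. Over all genes tested, 17.3% did not overlap and were higher, and 17.2% did not overlap and were lower. At an unadjusted edgeR p under 0.05, 4 of the 10 passed, namely the 3 type IX chains and Col6a3, where 15.9% of all genes tested did, 8.31% higher and 7.6% lower in DBA/2J. Only Col9a1 and Col9a2 also had a fold of 1.5, 2 of 10 where 8.67% of all genes tested met both limits, 4.2% higher and 4.48% lower in DBA/2J.

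The order of the levels per kilobase differed between the genotypes. In DBA/2J, Col6a1 was the highest at 34.2 CPM per kilobase, followed by Col9a2 at 27.9, Col12a1 at 25.4 and Col14a1 at 24.8, and the pools of those last 3 overlapped from one to the next. Col6a2 at 15.6, Col16a1 at 12.0 and Col9a1 at 11.9 came next, the last pair overlapping. Col6a3 at 8.81 and Col9a3 at 7.56 also overlapped, and Col22a1 was the lowest at 0.109. In Gpnmb+, Col14a1 at 31.5, Col12a1 at 30.5 and Col6a1 at 28.1 overlapped in turn at the top, and Col6a2 at 13.9, Col16a1 at 13.7 and Col6a3 at 11.3 overlapped in turn below them. Col9a2 at 5.33 and Col9a3 at 5.12 overlapped, above Col9a1 at 2.86 and Col22a1 at 0.0896. Col9a2 held place 2 in DBA/2J and place 7 in Gpnmb+, and Col9a1 place 7 and place 9. Col14a1 held places 4 and 1, Col6a1 places 1 and 3, Col6a3 places 8 and 6, and Col9a3 places 9 and 8. With the longest transcript or the coding length in place of all exons, Col9a2 was at place 3 in DBA/2J and 8 in Gpnmb+, and Col9a1 at places 6 and 9. Col6a2 moved in DBA/2J from place 5 to place 4 by the longest transcript, at 28.4 CPM per kilobase, and to place 2 by coding length, at 55.5 and above Col9a2 at 41.8. By coding length Col6a1 was at place 1 in both genotypes, and Col14a1 at place 5 in DBA/2J and 4 in Gpnmb+. By the longest transcript Col6a1 was at places 1 and 3 and Col14a1 at places 5 and 2.

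The other genes of the same families were read from lists, to be set against the 15.9% of all genes tested with an unadjusted edgeR p under 0.05 and the 6.96% that passed DESeq2's adjusted p of 0.05 (4.7% with a fold of 1.5). Of the other fibril-associated and type VI chains, 0 of 5 were called by edgeR, 2 passed an unadjusted p of 0.05 and 1 passed DESeq2's adjusted p. Col6a5, a chain that can take the place of the Col6a3 product, measured 27.3, 58.9 and 21.5 CPM in DBA/2J and 16.8 and 15.6 CPM in Gpnmb+. All 3 DBA/2J pools were the higher, with DBA/2J pool 2 far above the others, and the log2 fold change was 1.15 (SE 0.44, edgeR adjusted p = 0.283). Col19a1, a fibril-associated chain which is read from the opposite strand toward Col9a1 and ends 5006 bases short of it, was counted 14, 22 and 13 times for DBA/2J against 56 and 60 times for Gpnmb+. It thus lay on the other side from Col9a1, with a log2 fold change of -1.64 (SE 0.35, edgeR adjusted p = 0.103, DESeq2 adjusted p = 0.0236). Col20a1 had a log2 fold change of 0.45, Col6a6 one of -0.036, and Col6a4 had 3 to 18 counts per pool.

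Of the 11 fibril-forming collagens, on whose fibrils the fibril-associated types sit, 9 had log2 fold changes above 0, with a median of 0.73. None was called, although 8 passed an unadjusted edgeR p of 0.05, 7 higher and 1 lower, and 8 passed DESeq2's adjusted p of 0.05, where 15.9% and 6.96% of all genes tested did. The lower gene was Col27a1, with a log2 fold change of -0.99 (edgeR adjusted p = 0.0867) and pools that did not overlap. The type I chains Col1a2 and Col1a1, the main fibril collagens of sclera and cornea, had log2 fold changes of 0.73 and 0.99 (edgeR adjusted p = 0.111 and 0.0867). Col3a1 and Col5a2, which join type I fibrils, had values of 1.12 and 0.96 (edgeR adjusted p = 0.221 and 0.246). Col2a1, the type II chain to whose fibrils type IX binds, measured 49.2, 39.6 and 48.5 CPM in DBA/2J and 15.9 and 8.53 CPM in Gpnmb+. Its pools were separate, with Gpnmb+ pool 2 the lowest as for Col9a1, and its log2 fold change of 1.90 (SE 0.28) had an edgeR adjusted p of 0.0513, just short of a call.

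Of 18 fibril-surface and type VI partner genes, 17 were tested, 1 was called, 6 had an unadjusted edgeR p under 0.05 (5 higher and 1 lower) and 6 passed DESeq2's adjusted p, against 0.796%, 15.9% and 6.96% of all genes tested. Prelp, a leucine-rich proteoglycan that anchors basement membranes to connective tissue, rose with a log2 fold change of 0.79 (SE 0.11, edgeR adjusted p = 0.0461). Decorin (Dcn), a small proteoglycan that binds type I and type VI collagen, had a value of -0.44 (adjusted p = 0.185), biglycan (Bgn) one of 0.47 (adjusted p = 0.193), fibromodulin (Fmod) one of 0.57 (adjusted p = 0.0858) and Thbs1, a matricellular glycoprotein, one of 0.27 (adjusted p = 0.630), all from edgeR. The list's median was 0.21.

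Of 16 collagen receptor genes, 15 were tested and 0 were called by edgeR, with a median of 0.014. An unadjusted edgeR p under 0.05 was reached by 5, 3 higher and 2 lower, and 3 passed DESeq2's adjusted p (15.9% and 6.96% of all genes tested). The integrin subunit Itgb1 had a log2 fold change of 0.21, the matrix receptor gene Antxr1 one of -0.0084, and the collagen-activated kinases Ddr2 and Ddr1 values of -0.20 and 0.25. Of 30 collagen biosynthesis genes, 23 had values above 0 with a median of 0.23, and 0 were called by edgeR. An unadjusted edgeR p under 0.05 was reached by 10, 9 higher and 1 lower, and 5 passed DESeq2's adjusted p (again 15.9% and 6.96% of all genes tested). The prolyl hydroxylase subunit P4hb had a value of 0.15, the collagen chaperone Serpinh1 one of 0.36, Pcolce, which enhances procollagen processing, one of 0.00091, and the prolyl isomerase Ppib one of -0.0093.

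Markers of the tissue's cell types were read beside the type IX result. All 8 markers of nonpigmented ciliary epithelium had log2 fold changes above 0 and pools that did not overlap, where 17.3% of all genes tested lay that way. All 8 had an unadjusted edgeR p under 0.05 and passed DESeq2's adjusted p (15.9% and 6.96% of all genes tested), 2 were called (0.796%), and their median was 1.69. The called markers were Cdh2, a cell adhesion cadherin (log2 fold change 0.85, edgeR adjusted p = 0.0283), and Six6, an eye-field transcription factor. Optc, which encodes opticin, a vitreous proteoglycan, measured 524, 602 and 684 CPM in DBA/2J and 172 and 78.2 CPM in Gpnmb+. The 8 markers summed to 1107, 1197 and 1316 CPM in DBA/2J against 451 and 255 CPM in Gpnmb+, a ratio of means of 3.42, and the same pool was the lowest as for Col9a1 and Col9a2.

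Set against that sum, Col9a1 was 4.70%, 5.18% and 5.09% of it in DBA/2J against 4.04% and 4.23% in Gpnmb+, a ratio of 1.21. This ratio and those of Col9a2 and Col9a3 below were taken between means of log2 values. Col9a2 was 6.97%, 7.68% and 6.83% in DBA/2J against 4.65% and 4.73% in Gpnmb+, a ratio of 1.52. Col9a3 was 2.62%, 2.90% and 2.96% in DBA/2J against 4.79% and 9.69% in Gpnmb+, a ratio of 0.414. The DBA/2J pools remained the higher for Col9a1 and Col9a2 and became the lower for Col9a3. Optc made up 47.4% to 52.0% of the sum in DBA/2J but 38.0% and 30.7% in Gpnmb+. Without Optc, left out after its values were seen, the ratio of the mean sums was 2.64. The log2 ratios of Col9a1, Col9a2 and Col9a3 to the sum then differed by 0.66, 1.00 and -0.88, DBA/2J minus Gpnmb+. With Optc in the sum these differences were 0.27, 0.61 and -1.27. The part of ciliary epithelium in the type IX values was not tested.

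**Figure D4:**
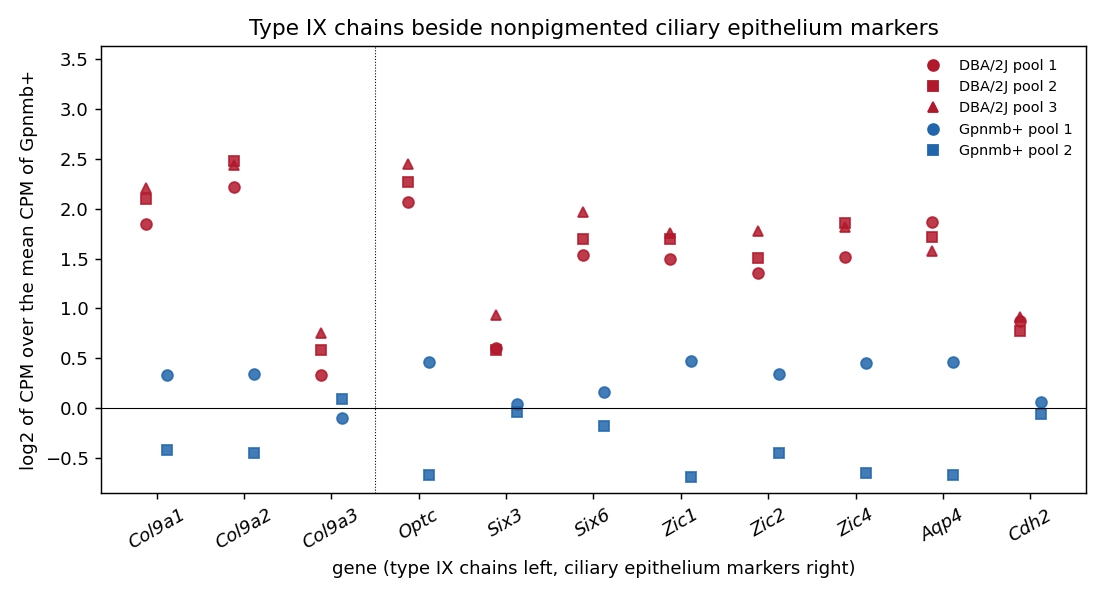
Log2 of each pool's CPM over the Gpnmb+ mean CPM, for the 3 type IX chains (left of the dotted line) and 8 markers of nonpigmented ciliary epithelium (right). Gpnmb+ pool 2 is under Gpnmb+ pool 1 for Col9a1, Col9a2 and all 8 markers and over it for Col9a3, and every DBA/2J pool is above both Gpnmb+ pools for the 11 genes.

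The cartilage-type matrix list, the other tissue known for type IX, behaved less uniformly. Of its 12 genes 9 were tested, 6 with log2 fold changes above 0 and 3 below, and 0 were called by edgeR. An unadjusted edgeR p under 0.05 was reached by 6, 4 higher and 2 lower, and 3 passed DESeq2's adjusted p (15.9% and 6.96% of all genes tested). The 2 lower genes were Cnmd and Sox5, with log2 fold changes of -1.08 and -0.97. The list summed to 193, 224 and 186 CPM in DBA/2J and 147 and 147 CPM in Gpnmb+. Comp and Sox9, a matrix protein and the transcription factor that drives chondrocyte genes, had values of 0.26 and -0.30, and Matn3, a cartilage matrilin, one of 1.02 (edgeR adjusted p = 0.191). Col2a1, given above, also belongs to this list and was lowest in the same pool as Col9a1. Snorc was at 0 counts in all pools, and Acan, the main cartilage proteoglycan, was counted 17, 20 and 21 times for DBA/2J against 4 and 7 times for Gpnmb+. The part of cartilage-type cells in the type IX values was not tested.

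Trabecular meshwork markers were below 0 in 6 of 6 tested genes, with a median of -0.84. The pools of 4 did not overlap (17.2% of all genes tested were lower in this way), 4 had an unadjusted edgeR p under 0.05 and 3 passed DESeq2's adjusted p (15.9% and 6.96% of all genes tested). Edn3 was called (log2 fold change -0.86, edgeR adjusted p = 0.0392), where 0.796% of all genes tested were. These markers summed to 935, 1079 and 1131 CPM in DBA/2J against 1438 and 1460 CPM for Gpnmb+. Mgp, a matrix protein that limits calcification and the most abundant gene of the list, had overlapping pools and a log2 fold change of -0.061. Myoc, a gene abundant in meshwork cells, had a value of -1.06 (edgeR adjusted p = 0.165). Of the 6 tendon and dense connective tissue markers, 1 was called, the tendon transcription factor Mkx, which was lower in DBA/2J (log2 fold change -0.96, edgeR adjusted p = 0.0374). The list's median was -0.21, 4 of the 6 had an unadjusted edgeR p under 0.05, 2 in each direction, and 4 passed DESeq2's adjusted p. These genes, among which Fmod held most of the counts, summed to 1734, 1804 and 1783 CPM in DBA/2J and 1412 and 1243 CPM in Gpnmb+. Corneal stroma markers summed to 2532, 3389 and 2558 CPM in DBA/2J against 3455 and 3511 CPM, lower in every DBA/2J pool, with 0 of 5 called by edgeR and 1 at an unadjusted p under 0.05. The sum rested on Aldh3a1, a crystallin-like enzyme of the cornea, and without it the pools overlapped, at 1584, 1758 and 1707 CPM against 1859 and 1398 CPM. Of the 5 genes, 2 had log2 fold changes above 0 and 3 below. Krt12, a keratin of the corneal epithelium that was singled out after its values were seen, measured 254, 116 and 9.44 CPM in DBA/2J against 1702 and 554 CPM for Gpnmb+. All DBA/2J pools were the lower, with a log2 fold change of -3.16 (SE 1.16, edgeR adjusted p = 0.270). The part of these cell types in the values of Col12a1, Col14a1, Col16a1 and the type VI genes was not tested.

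Genes whose pattern across the 5 pools was most like the type IX mean were Bcap29, Alg10, Arxes2, Ptov1 and Slit2, by Pearson correlation of log2 CPM. Slit2, a secreted guidance protein, and Bcap29, a membrane protein of the endoplasmic reticulum, were called higher in DBA/2J, with log2 fold changes of 1.23 and 0.76. With 5 points that include the difference between the genotypes such likeness is common, and 658 tested genes had a correlation above 0.95. For the type VI mean the closest were Mrpl1, Gm10269, Tasp1, ENSMUSG00000120954 and Cenpn, none of them called, and 134 genes were above 0.95. Among the members, Col9a1 and Col9a2 correlated at 0.998, Col6a1 and Col6a2 at 0.973, and Col6a3 correlated with Col16a1 at 0.980 but with Col6a1 at -0.049, all over the same 5 pools and libraries.

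**Figure D5:**
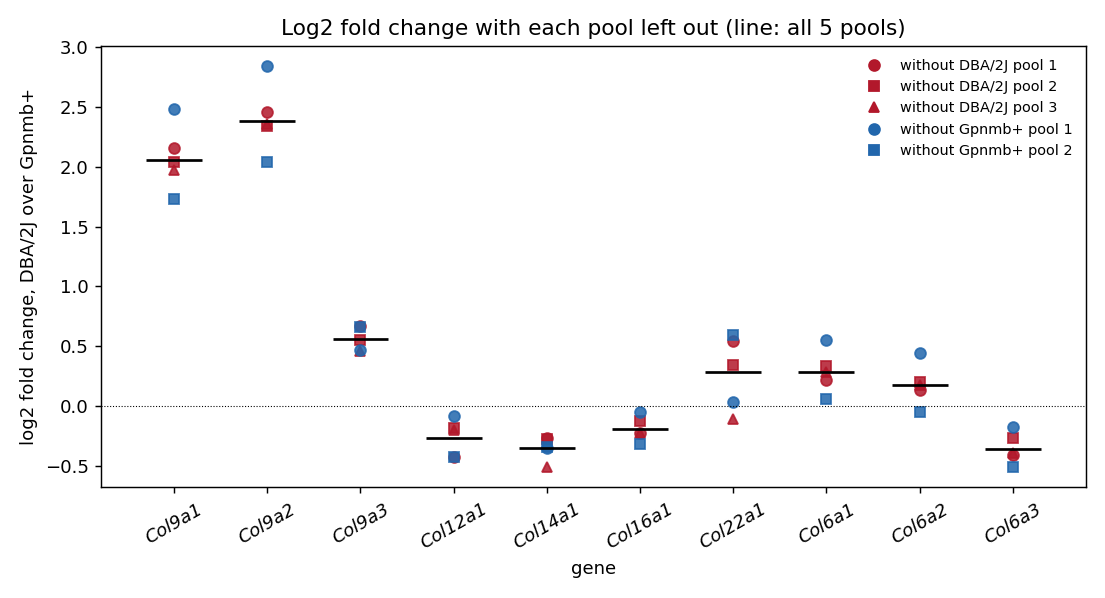
Log2 fold change of each gene when 1 of the 5 pools is left out, with a line at the value from all 5. Col9a1 stays between 1.73 and 2.48 and Col9a2 between 2.04 and 2.84, whereas Col22a1 and Col6a2 lie on both sides of 0.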

How the data were processed

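Bulk RNA was measured in 5 pools of iridocorneal tissue. The authors deposited raw counts per gene. Per the study's methods, they had trimmed the reads (fastp) and counted those that STAR aligned to 1 location in GRCm39. No source gives the strand setting, so genes that overlap are uncertain. Positions and exon lengths came from GENCODE M39 (56323 of 56941 identifiers). The software was edgeR 4.0.16, limma 3.58.1 and DESeq2 1.42.0 in R 4.3.3, and scipy 1.17.1, pandas 2.3.3 and numpy 2.4.6 in Python 3.11.15.

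A gene was kept where any pool held 10 or more counts. Libraries were TMM-scaled and compared by edgeR's quasi-likelihood test with no covariate, adjusting p-values over all genes tested. Ratios between chains used an exact permutation test. The 10 genes were described in full. From each gene list, called genes and up to 4 others of the largest mean level were named, and the 5 genes most correlated with each trimer. Genes and lists were chosen with earlier results of these data known. Col6a4, Acan, Snorc, Cnmd, Sox5, Col27a1 and Krt12 were singled out after their values were seen. Alternatives were DESeq2, limma-voom, other filters, a replicate block, other gene lengths and leaving out each pool. Replicate pools were compared and none held identical values. Protein measurements were not analysed here.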

Additional observations from a re-analysis of the deposited data

How the results depend on the processing

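With DESeq2's Wald test 927 genes were called in place of 157, with no filter on low counts 360, and at an unadjusted p 1710, and in each case Col9a1 and Col9a2 were the 2 members called. Leaving out 1 pool gave 1 to 217 genes and 0 to 2 members called: 6 genes without DBA/2J pool 1, 1 without pool 2, 17 without pool 3, 2 without Gpnmb+ pool 2 (0 members in each), and 217 genes and 2 members without Gpnmb+ pool 1. At an unadjusted p under 0.05 from edgeR, 5, 3, 4 and 4 members passed in the fits with 0 calls, Col9a1 and Col9a2 among them each time. Where a Gpnmb+ pool was left out, the remaining one was assumed to vary as the DBA/2J pools do. With the replicate number as a block, 220 genes and 2 members were called. The numbers join only 2 pairs of pools (correlations of deviations 0.28 and 0.25) and no label says what they mark, so this pairing was not used. The sign of Col22a1 turned with the block (-0.11) and without DBA/2J pool 3 (-0.11), and that of Col6a2 without Gpnmb+ pool 2 (-0.052), and the cause was not tested. With each pool left out in turn, Col22a1 ranged from -0.11 to 0.60 and Col6a2 from -0.052 to 0.44. With the longest transcript as the length, 2 members kept their place in the DBA/2J order and 6 in the Gpnmb+ order, with the coding length 2 and 5, and with a pool left out 6 to 10 and 6 to 7. Depth limits Col22a1 most, at 28 to 69 counts per pool where no other member had fewer than 528.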

Other observations

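Markers of other cell types that could lie in the dissected ring gave the following values. They are read against the 0.796% of all genes tested that edgeR called and the 15.9% with an unadjusted edgeR p under 0.05. Of 7 smooth muscle markers 0 were called by edgeR, with 0 at an unadjusted p under 0.05, and the median log2 fold change was -0.17. Of 6 corneal epithelium markers tested 0 were called by edgeR, with 1 at an unadjusted p under 0.05 and a median of -0.15, and of 7 endothelium markers 0, with 1 at an unadjusted p under 0.05 and a median of -0.16. Of 6 macrophage markers 0 were called by edgeR, with 1 at an unadjusted p under 0.05, and the median was 0.31. Of 6 pigment cell markers 1 was called, Slc45a2, a melanosome transporter gene (log2 fold change -2.46, edgeR adjusted p = 0.0262). In that list 2 genes had an unadjusted edgeR p under 0.05, both lower in DBA/2J, and the median was -0.15. Photoreceptor markers summed to 582, 827 and 560 CPM in DBA/2J and 336 and 1836 CPM in Gpnmb+, and lens markers to 5.62, 5.40 and 7.29 CPM against 3.13 and 5.27 CPM, with 0 genes called by edgeR and 0 at an unadjusted p under 0.05 in both lists. Gpnmb+ pool 2, the lowest pool for Col9a1, Col9a2, Col6a1 and Col6a2, was the highest for photoreceptor RNA.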
